A study of Mus musculus with 4 samples.

Results

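The genes described are Jak1, Jak2, Jak3 and Tyk2, which encode the Janus kinases, and Stat2, Stat3, Stat5a, Stat5b and Stat6, which encode signal transducers and activators of transcription. They were chosen by symbol. All 9 were found in each of the 3 deposited comparison tables, out of 13685 genes listed in any table (13120 for Wnt2 against control medium, 13329 for CAF.CM against control medium and 13072 for CAF.CM + Wnt2 antibody against CAF.CM).

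Cytokine receptors of this pathway carry no kinase of their own. When a ligand brings receptor chains together, the Janus kinases bound to them phosphorylate the receptor and then STAT proteins, which pair up, enter the nucleus and bind DNA. In dendritic cells grown from bone marrow this pathway carries the signals of GM-CSF, IL-4, the IL-6 and IL-10 families and the interferons, and the SOCS proteins switch it off. It is run by phosphorylation, so an mRNA level shows how much message was present and not how active the pathway was.

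RNA-seq was done on dendritic cells derived from bone marrow of C57BL/6 mice aged 4 weeks. All 4 groups had grown for 7 days with IL-4 and GM-CSF, each at 10 ng/ml. One group stayed in control medium. The others received the secreted ligand Wnt2, culture medium of CAFs (CAF.CM; CAF usually stands for cancer-associated fibroblast), or CAF.CM that had been held with an antibody to Wnt2 before use. The Wnt2 dose, the time of treatment and the source of the CAFs are not stated, and no library with CAF.CM and a control antibody was analysed. Each group has 1 column of values. Triplicates are mentioned in the design text, but nothing says if a column pools cultures. Each column is called a library below. With 1 library per group, no difference has a replicate check, and every interval printed is a 95% interval for counting error only.

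The libraries held 143071376 (control medium), 154399767 (Wnt2), 25225220 (CAF.CM) and 22791494 (antibody) reads in listed genes, so the libraries with CAF.CM were the shallow ones. Of 15 conventional dendritic cell markers, 14 were in a table and Cd209a was in none, and the 11 with a value in every library summed to between 787 and 3365 CPM (counts per 1e6 mapped reads, normalized), lowest with Wnt2. All 14 macrophage and monocyte markers were present, summing to 29564 CPM in control medium, 21170 after Wnt2, 9663 after CAF.CM and 6702 with the antibody. Markers of other cells were summed over those with a value in every library, which leaves out some that were listed. By this sum 3 of 12 neutrophil markers reached 108 to 1536 CPM, 4 of 12 T and NK markers 5.46 to 10.6 CPM, 2 of 8 fibroblast markers (Dcn and Pdgfrb, of 5 listed) 3.0 to 15.9 CPM and 1 of 6 B cell markers (Ighm) 1.72 to 15.8 CPM. S100a9, Cd3d, Cd3e and Col1a1 and all 6 erythroid markers were in no table. Over the 12473 genes listed in all 3 comparisons, protein-coding genes held 81.2% of reads in control medium and 80.1% after Wnt2. They held 75.8% after CAF.CM and 72.4% with the antibody. The part of these differences in the results below was not tested, and in bulk RNA fewer cells of a type and less RNA per cell cannot be told apart.

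Promoter sequence is shown first for Stat2 and Jak2, because these were the members called different below. All 9 genes matched the RefSeq promoter table (build GRCm38.p6), with 11 windows of 250 bases before a transcription start, since Stat5a and Stat5b have 2 each. The windows were searched on both strands for a short and a long GAS-type motif, palindromic sites of the kind STAT dimers bind that differ by 1 base in the gap between their half-sites, and for the core of the interferon-stimulated response element (ISRE) bound by Stat2 together with Irf9. Only the Stat2 window held a match, 1 ISRE core and 1 match of the long GAS-type motif, printed here in capitals. The Stat2 window is chr10:128270248-128270497, plus strand, with a GC content of 56.8%. The Jak2 window is chr19:29251553-29251802, plus strand, with a GC content of 80.8% and none of the motifs.
Stat2: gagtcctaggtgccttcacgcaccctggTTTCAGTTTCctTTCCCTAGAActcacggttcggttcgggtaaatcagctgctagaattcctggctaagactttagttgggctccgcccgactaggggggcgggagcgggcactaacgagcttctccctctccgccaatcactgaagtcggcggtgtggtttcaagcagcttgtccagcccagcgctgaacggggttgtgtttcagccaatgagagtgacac
Jak2: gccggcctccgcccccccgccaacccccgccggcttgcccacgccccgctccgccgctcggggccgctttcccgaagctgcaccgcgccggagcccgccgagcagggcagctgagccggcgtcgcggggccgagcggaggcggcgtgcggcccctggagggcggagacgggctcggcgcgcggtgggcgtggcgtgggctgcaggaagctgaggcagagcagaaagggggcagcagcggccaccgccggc

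The Stat2 ISRE core lies on the minus strand, 222 to 213 bases before the start. Of 32841 windows of this length in the table, 2.98% held an ISRE core, 5.85% held the long and 7.02% the short GAS-type motif. Of 26 listed genes that Stat2 and Irf9 are known to act on, 18 had a window and 8 of these (44.4%) held an ISRE core (Ifit1, Ifit3, Isg15, Oas1a, Oas3, Rsad2, Bst2 and Trim30a). By gene, 3.46% of the 27018 genes in the table held one. The matches of Stat2 and of 4 of these antiviral genes are set side by side here with up to 10 bases on each side, the core in capitals, because the expression of the same genes is described below. They lie on the gene's own strand as printed at chr10:128270266-128270295 (Stat2, plus), chr19:34640794-34640823 (Ifit1, plus), chr19:34583397-34583426 (Ifit3, plus), chr5:120777715-120777744 (Oas3, minus) and chr12:26456553-26456582 (Rsad2, minus). Ifit1 and Ifit3 hold a further match each that is not printed, with the core TTTCACTTTC, which differs from that of Stat2. That the printed Ifit1 and Ifit3 cores equal the Stat2 core thus rests on which match was printed. The matches of Isg15, Oas1a, Bst2 and Trim30a are not printed either. A match is a description of the letters and shows no binding.
Stat2: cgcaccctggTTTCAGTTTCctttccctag
Ifit1: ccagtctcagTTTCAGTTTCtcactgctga
Ifit3: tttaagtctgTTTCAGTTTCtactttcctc
Oas3: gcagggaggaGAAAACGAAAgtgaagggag
Rsad2: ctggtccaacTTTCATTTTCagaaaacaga

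Jak2 and Stat2 were the members that stood at least 2-fold apart in a comparison, Jak2 in CAF.CM against control medium and Stat2 in antibody against CAF.CM. In Wnt2 against control medium, 0 of the 9 genes were at least 2-fold apart, where 5.8% of the 13120 listed genes were (2.87% higher and 2.93% lower). In CAF.CM against control medium, 1 was higher and 0 were lower, where 15.4% of listed genes were apart (6.68% higher and 8.69% lower). In antibody against CAF.CM, 0 were higher and 1 was lower, where 4.67% of listed genes were (1.02% higher and 3.65% lower). One call among 9 genes is near these background shares, so the counts show nothing particular to the JAK and STAT genes. At 1.5-fold, 2 were higher with CAF.CM (Jak2 and Stat2), where 13.8% of listed genes were, and 2 were lower with antibody against CAF.CM (Stat2 and Jak3), where 10.7% were. The first pair of comparisons shares the control library and the last pair shares the CAF.CM library, so they are not independent.

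**Figure D1:**
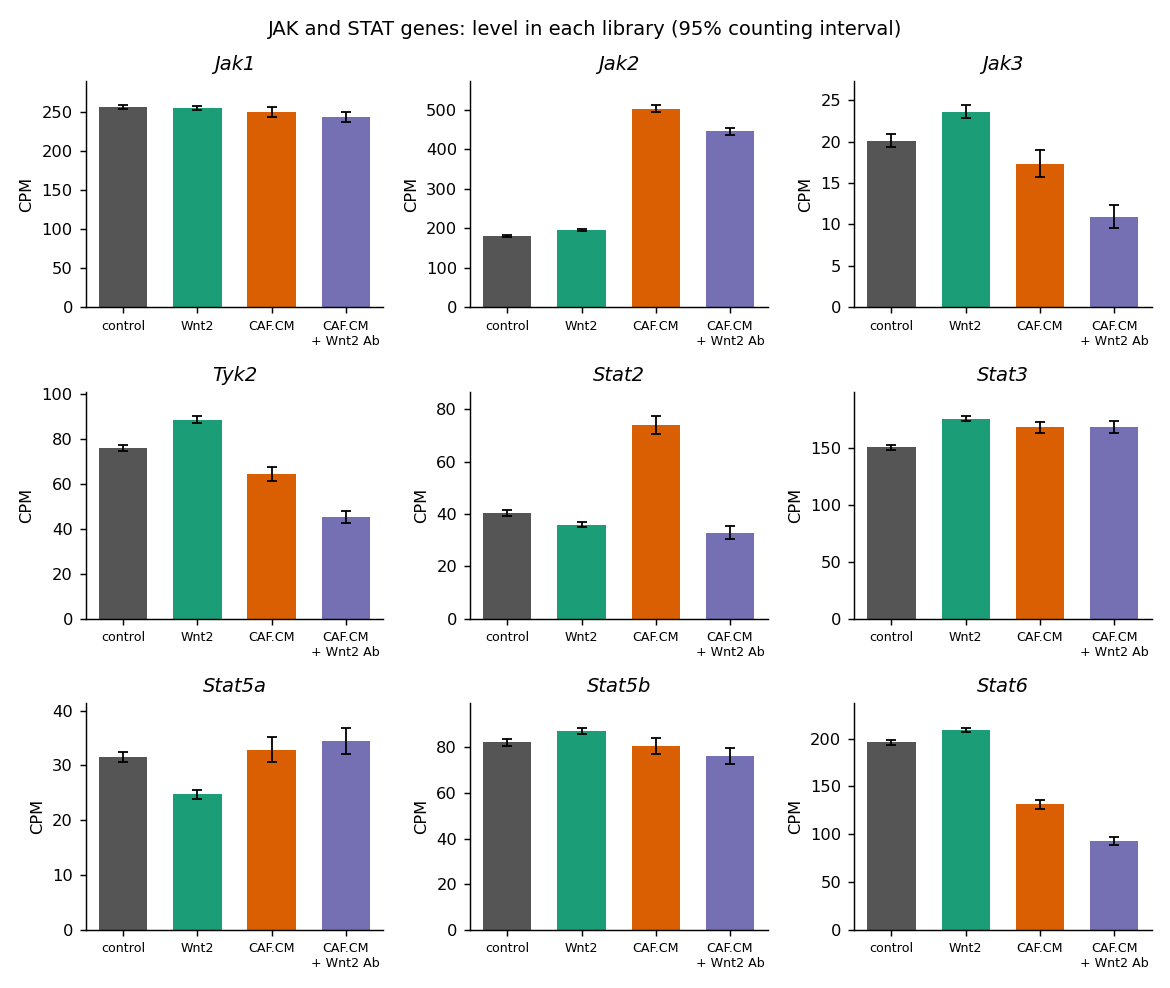
Level of each of the 9 genes in CPM (vertical axis, from 0) in the 4 libraries, 1 bar per library, with 95% counting intervals as whiskers. Jak2 stands at 503 and 446 CPM in the libraries with CAF.CM and at 181 and 196 in those without, Stat2 is high with CAF.CM alone, and Jak1 lies between 244 and 256.05 CPM everywhere.

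Among the kinases, Jak1 serves the widest range of receptors, among them those built on gp130, the common gamma chain and the interferon receptors. Jak1 (ENSMUSG00000028530, chr4:101152367-101265282, minus strand) measured 256.05 CPM in control medium, 255 after Wnt2, 250.05 after CAF.CM and 244 with the antibody. These levels were the closest together of the 9 genes, with a span of 0.07 on the log2 scale, and no neighbours in the order differed beyond counting error. Between the ends of the order, the antibody library was at -0.072 (-0.11 to -0.032) against control medium and at -0.068 (-0.11 to -0.028) against Wnt2, ratios set across tables. The log2 ratio was -0.0039 (interval -0.025 to 0.017) for Wnt2, -0.034 (-0.072 to 0.0039) for CAF.CM and -0.038 (-0.090 to 0.014) for antibody against CAF.CM. Its sign for Wnt2 and for CAF.CM turned under other scalings of the libraries, so no direction is given for it. These scalings moved its ratio by up to 0.061 for CAF.CM and 0.037 for antibody against CAF.CM. The ratios set across tables were not recomputed under them, so those give no direction either.

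Jak2 is the kinase of the GM-CSF receptor, the cytokine these cells were grown in, and it also serves interferon gamma and IL-12 receptors. Jak2 (ENSMUSG00000024789, chr19:29251828-29313080, plus strand) measured 181 CPM in control medium, 196 after Wnt2, 503 after CAF.CM and 446 with the antibody. Both libraries with CAF.CM were high and both without it were low. The summed fibroblast markers Dcn and Pdgfrb split the libraries in the same way, at 3.18 and 3.0 CPM without CAF.CM and 13.5 and 15.9 CPM with it, and so did read depth, and the part of either in the Jak2 level was not tested. Jak2 was 2.78-fold higher with CAF.CM than in control medium (log2 ratio 1.47, interval 1.442 to 1.503), at percentile 96.5 of all listed genes. The authors' deposited table gives it an adjusted p of 3.78e-11 there, from a spread that is not stated. With Wnt2 the log2 ratio was 0.11 (0.090 to 0.14). With antibody against CAF.CM it was -0.17 (-0.21 to -0.14), so the level with the antibody was still 2.46-fold above control medium, a ratio set across tables (log2 1.30, 1.27 to 1.33).

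The kinases changed places in their order as a result. Per kb of the longest transcript, the level in control medium was 52.2 CPM for Jak1, 36.0 for Jak2, 15.7 for Tyk2 and 5.00 for Jak3. With CAF.CM, Jak2 reached 99.98 CPM per kb against 50.97 for Jak1. Jak2 made up 33.1% of the summed level per kb of the 4 kinases in control medium, 33.8% after Wnt2, 59.3% after CAF.CM and 59.0% with the antibody. Measured per kb of all annotated exons instead, its shares were 41.8%, 42.6%, 67.9% and 67.7%, so Jak2 was then already level with Jak1 in control medium. Within a library the scaling cancels. There were 0.708 Jak2 reads per Jak1 read in control medium, 0.768 after Wnt2, 2.01 after CAF.CM and 1.83 with the antibody, and the counting intervals of the libraries without CAF.CM (0.696 to 0.780) lay far below those of the libraries with it (1.77 to 2.07).

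Jak3 works almost only with the common gamma chain, which it serves in the IL-4 receptor. Jak3 (ENSMUSG00000031805, chr8:71676296-71690575, plus strand) measured 20.1 CPM in control medium, 23.6 after Wnt2, 17.3 after CAF.CM and 10.9 with the antibody, the last from 253 reads. Wnt2 was the highest and the antibody library the lowest. Jak3 was not called in any comparison, with log2 ratios of 0.23 (0.16 to 0.30) for Wnt2, -0.21 (-0.36 to -0.07) for CAF.CM and -0.66 (-0.90 to -0.44) for antibody against CAF.CM. The last is a 1.58-fold lower level at percentile 8.54 of listed genes, and the authors' deposited table gives it an adjusted p of 0.0566. Insl3 lies across Jak3 on the same strand, with 404 bases of exon in common (7.55% of the Jak3 exon bases), and how reads there were assigned is not stated in the sources at hand.

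Tyk2 serves the type I interferon receptor chain Ifnar1 and the IL-12 and IL-10 families. Tyk2 (ENSMUSG00000032175, chr9:21104068-21131243, minus strand) measured 75.9 CPM in control medium, 88.5 after Wnt2, 64.3 after CAF.CM and 45.2 with the antibody. The order of the libraries was that of Jak3. The log2 ratios were 0.22 (0.18 to 0.26), -0.24 (-0.31 to -0.16) and -0.51 (-0.62 to -0.40), none of them a 2-fold difference. An antisense gene, 1700084C06Rik, overlaps 8.07% of the Tyk2 exon bases, and it is not stated whether counting used strand. The authors' deposited table gives the last ratio an adjusted p of 0.141.

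Jak3 and Tyk2 stayed in nearly the same proportion. There were 0.265 Jak3 reads per Tyk2 read in control medium (0.254 to 0.276), 0.266 after Wnt2 (0.257 to 0.276), 0.269 after CAF.CM (0.242 to 0.299) and 0.241 with the antibody (0.209 to 0.277). All 4 intervals overlap. Against Jak1 both varied, from 0.0924 Jak3 reads per Jak1 read with Wnt2 to 0.0448 with the antibody, and from 0.347 to 0.186 for Tyk2.

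**Figure D2:**
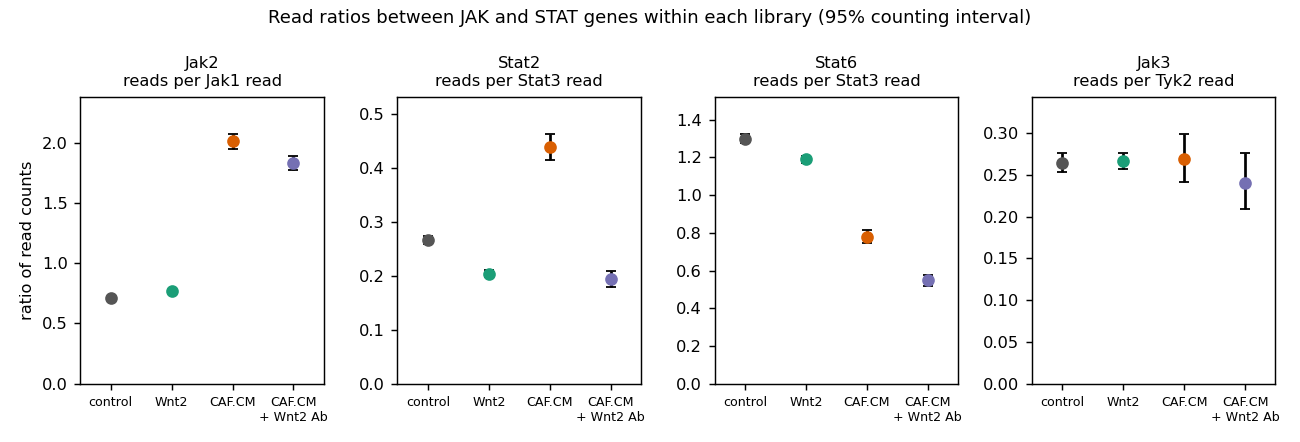
Ratio of the read counts of a pair of genes within each of the 4 libraries (vertical axes, from 0), as points with 95% counting intervals. Jak2 reads per Jak1 read go from 0.708 in control medium to 2.01 with CAF.CM, Stat2 per Stat3 peaks at 0.439 with CAF.CM, Stat6 per Stat3 is lowest at 0.548 with the antibody, and Jak3 per Tyk2 lies between 0.241 and 0.269.

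Among the STAT genes, Stat2 is the partner of Irf9 in the complex that carries type I interferon signals to the ISRE. Stat2 (ENSMUSG00000040033, chr10:128270559-128292849, plus strand) measured 40.3 CPM in control medium, 36.0 after Wnt2, 73.9 after CAF.CM and 32.8 with the antibody. The CAF.CM library stood alone above the others. The log2 ratio for CAF.CM was 0.88 (0.80 to 0.95), a 1.84-fold higher level at percentile 91.8 that missed the 2-fold call, and the authors' deposited table gives it an adjusted p of 0.000192. With antibody against CAF.CM, Stat2 was 2.25-fold lower (-1.17, -1.29 to -1.05), at percentile 2.30, and the authors' deposited table gives an adjusted p of 5.58e-06. The antibody library lay below control medium too, by -0.29 (-0.40 to -0.18) across tables, and Wnt2 against control medium gave -0.16 (-0.22 to -0.11). Against Stat3 in the same library, there were 0.267 Stat2 reads per Stat3 read in control medium, 0.204 after Wnt2, 0.439 after CAF.CM and 0.194 with the antibody.

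Stat6 carries the IL-4 and IL-13 signal. Stat6 (ENSMUSG00000002147, chr10:127642986-127660957, plus strand) lies 609.6 kb from Stat2 on the same chromosome. It measured 196 CPM in control medium, 209 after Wnt2, 131 after CAF.CM and 92.7 with the antibody. Both libraries with CAF.CM were below both without it, and the antibody library was the lowest. The log2 ratio was 0.094 (0.070 to 0.12) for Wnt2, -0.58 (-0.63 to -0.53) for CAF.CM and -0.50 (-0.58 to -0.42) for antibody against CAF.CM. Neither of the latter is a 2-fold difference, and the authors' deposited table gives them adjusted p values of 0.0184 and 0.136. The antibody library against control medium, a ratio set across tables, was 2.12-fold lower (-1.08, -1.15 to -1.02). Of the summed level per kb of the 5 STAT genes, Stat6 made up 47.3% in control medium, 47.9% after Wnt2, 33.6% after CAF.CM and 29.4% with the antibody, while Stat2 made up 8.33%, 7.06%, 16.3% and 8.95%.

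Jak3, Tyk2 and Stat6 had the same order of libraries, with antibody lowest, then CAF.CM, control medium and Wnt2, and for all 3 every step between neighbours exceeded counting error. Summed macrophage markers (29564 to 6702 CPM) and the protein-coding share (81.2% to 72.4%) were lowest in the same library and next lowest with CAF.CM, but were higher in control medium than with Wnt2. The sum of 3 neutrophil markers (S100a8, Mmp8 and Csf3r, of 12 looked for) followed the whole order. This sum was 108 CPM with the antibody, 157 after CAF.CM, 597 in control medium and 1536 after Wnt2. Csf3r by itself did not follow the order, at 48.6 CPM in control medium and 35.0 after Wnt2. The share of Malat1, a nuclear noncoding RNA, ran from 1.38% in control medium to 3.86% with the antibody, over the genes listed in all comparisons. The part of these measures in the levels of Jak3, Tyk2 and Stat6 was not tested.

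Stat3 carries the signals of the IL-6 and IL-10 families. Stat3 (ENSMUSG00000004040, chr11:100885098-100939540, minus strand) measured 151 CPM in control medium, 176 after Wnt2, 168 after CAF.CM and 169 with the antibody. Control medium was the lowest, and the libraries with CAF.CM did not differ beyond counting error (log2 ratio 0.0056, -0.057 to 0.068, whose sign turned under other scalings). The ratio was 0.22 (0.20 to 0.25) for Wnt2 and 0.16 (0.11 to 0.21) for CAF.CM, neither of them called.

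Stat5a and Stat5b carry the GM-CSF signal downstream of Jak2. They lie 8.63 kb apart on chromosome 11, Stat5a (ENSMUSG00000004043) at chr11:100859351-100885169 on the plus strand and Stat5b (ENSMUSG00000020919) at chr11:100780731-100850724 on the minus strand, and the 3′ end of Stat5a overlaps that of Stat3 by 72 bases on the other strand. Their coding sequences were 89.4% identical, with 1 stretch of 324 identical bases, and 21.7% of the 31-base words of the longest Stat5a transcript were also in Stat5b. The first 75 coding bases are printed because they show where reads can tell the genes apart. The 15 bases that differ are in capitals, and the stretches lie at chr11:100861338-100861412, plus strand, and chr11:100808449-100808523, minus strand, in GRCm38.
Stat5a: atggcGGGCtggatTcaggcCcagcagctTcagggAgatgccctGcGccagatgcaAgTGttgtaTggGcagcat
Stat5b: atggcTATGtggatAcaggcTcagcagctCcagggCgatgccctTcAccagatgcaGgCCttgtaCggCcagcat

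Stat5a measured 31.5 CPM in control medium, 24.7 after Wnt2, 32.8 after CAF.CM and 34.4 with the antibody. Stat5b measured 82.1, 87.2, 80.6 and 76.1 CPM in the same order of libraries. Wnt2 was thus the lowest library for Stat5a and the highest for Stat5b. The log2 ratios for Wnt2 were -0.35 (-0.42 to -0.29) for Stat5a and 0.086 (0.050 to 0.12) for Stat5b, with no 2-fold difference. For CAF.CM they were 0.058 (-0.049 to 0.16) and -0.027 (-0.094 to 0.041, with a sign that turned under other scalings). For antibody against CAF.CM they were 0.068 (-0.072 to 0.21) and -0.083 (-0.18 to 0.0090), so all 4 of these intervals include 0. There were 0.384 Stat5a reads per Stat5b read in control medium, 0.283 after Wnt2, 0.407 after CAF.CM and 0.452 with the antibody, and the interval for Wnt2 (0.273 to 0.294) lay below the other 3. How the reads that fit both genes were split is not stated, so the values of this pair are uncertain by more than the counting intervals.

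**Figure D3:**
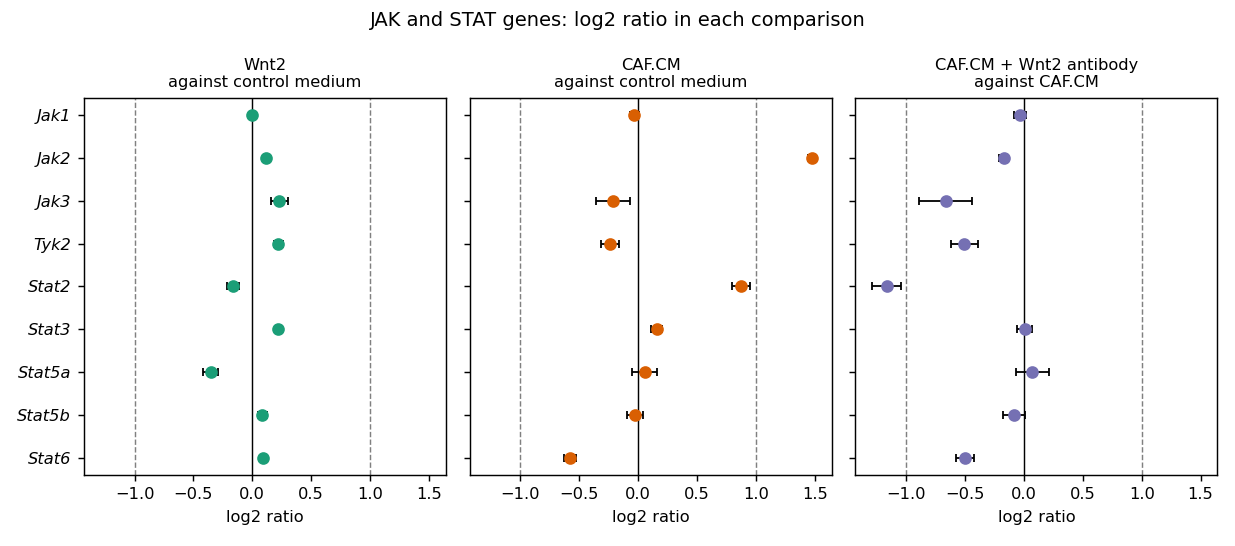
Log2 ratio (horizontal axis) of each of the 9 genes in the 3 comparisons, as points with 95% counting intervals; dashed lines mark 2-fold. Jak2 at 1.47 in CAF.CM against control medium and Stat2 at -1.17 in antibody against CAF.CM lie beyond the lines, and the 9 Wnt2 ratios lie between -0.35 and 0.23.

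Across the 9 genes the median log2 ratio was 0.094 for Wnt2 (6 above 0), -0.027 for CAF.CM (4 above 0) and -0.17 for antibody against CAF.CM (2 above 0), beside -0.023, -0.045 and -0.037 over all listed genes. For CAF.CM this tally depends on the scaling, since DESeq2 size factors, TMM and total reads each gave 6 above 0, with medians of 0.018, 0.023 and 0.035. For Wnt2 the same 3 scalings gave 7 above 0. For antibody against CAF.CM, total reads and thinning of the deeper library gave 1 above 0. The medians of these 2 comparisons kept their sign. All 9 Wnt2 ratios lay between the 5th and 95th percentile of all genes in that comparison (-0.77 to 0.75). Outside that range were Jak2 for CAF.CM (-1.35 to 1.22) and Stat2 for antibody against CAF.CM (-0.86 to 0.55). By the authors' deposited table for Wnt2, 0 of the 9 had an adjusted p below 0.05, where 15.4% of genes did (7.36% higher and 8.0% lower). The authors' deposited table for CAF.CM has 3 such members (Jak2 and Stat2 higher, Stat6 lower), where 32.6% of genes passed (13.9% higher and 18.8% lower). The authors' deposited table for antibody against CAF.CM has 1 (Stat2, lower), where 6.98% passed (1.42% higher and 5.55% lower).

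Levels over the 4 libraries were matched against 10648 protein-coding genes with a value in each and at least 200 reads in all. Predicted and unnamed genes were left out. The genes most like Jak2 were Sema7a, Hnrnpa1 and Tmem220, at distances of 0.09, 0.10 and 0.12 (Euclidean distance of log2 CPM centred on each gene's mean). For Stat2 they were Tnfsf13b (0.09), Slfn8 and Trex1 (0.20 each), for Stat6 they were Tmem18 (0.04), Eif4g3 and Sumf1, and for Jak3 they were Gin1 (0.05), Stx17 and Ap5b1. Within the 9 genes, Jak1 and Stat5b (0.09) and Jak3 and Tyk2 (0.13) were nearest to each other, and Jak2 and Stat6 were farthest apart (2.22). These are descriptions over 4 libraries.

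Counts of genes at least 2-fold apart follow for other lists of the pathway. Over all listed genes the shares were 2.87% higher and 2.93% lower for Wnt2, and 6.68% and 8.69% for CAF.CM. For antibody against CAF.CM they were 1.02% and 3.65%. List counts near these shares show nothing particular to a list. The ligands of the pathway were next. Of 24 on the list, 10 were in a table. With CAF.CM, 6 of 10 were at least 2-fold higher and 0 lower (median log2 ratio 1.59). With Wnt2, 2 of 7 were higher and 0 lower (median 0.31), and with antibody against CAF.CM 0 of 10 were called (median 0.19). A comparison lists a gene only at about 1 CPM or more in 1 of its libraries. Il12a, Il12b, Il27 and Lif were below this in control medium, so the CAF.CM comparison lists them only because they were higher there. Lif was listed for Wnt2 for the same reason. The listing rule thus partly fixed these counts and medians. Il12a, Il12b and Il27 were not listed for Wnt2, so the 10 and 7 genes are not like sets. Il6, a gp130 cytokine, measured 1.72 CPM in control medium, 2.49 after Wnt2, 22.7 after CAF.CM and 25.5 with the antibody, a log2 ratio of 3.70 for CAF.CM. Osm, oncostatin M, measured 6.77, 28.4, 25.2 and 37.8 CPM in the same order, and was higher with Wnt2 (2.07) and with CAF.CM (1.89). Lif, a further gp130 cytokine, was higher in the same 2 comparisons (2.31 and 2.46), from 0.735 CPM in control medium to 3.70 and 4.15. Il12a, Il12b and Il15 were higher with CAF.CM (5.60, 2.60 and 1.29), Il12a from 15 reads in control medium. The libraries high in Il6 were thus the same 2 that were high in Jak2, while Osm and Lif were low in control medium alone.

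The next list holds 9 genes for the common gamma chain and related receptors, not all of them served by Jak3 (Crlf2 and Il13ra1 are not). The Wnt2 comparison had 0 higher and 2 lower (Il2rb and Crlf2). CAF.CM had 2 higher and 2 lower, and antibody against CAF.CM had 0 higher and 2 lower (Il2rb and Il21r). The last Il2rb ratio rests on 26 reads with the antibody and 73 with CAF.CM. Its interval (-2.03 to -0.66) spans the 2-fold line. With CAF.CM the higher ones were Il15ra (1.91), which presents IL-15, and Il2ra (1.19), and the lower ones were Il7r (-1.56) and Crlf2 (-1.004, at the 2-fold line). The Il2ra ratio rests on 67 reads with CAF.CM, and its interval (0.77 to 1.63) spans the 2-fold line too. Il4ra, the IL-4 receptor chain, measured 172, 285, 201 and 147 CPM in control medium, Wnt2, CAF.CM and antibody, with ratios of 0.73, 0.22 and -0.45. The medians of this list were -0.23, -0.52 and -0.45. Of the receptor genes around the common beta chain, 4 of 5 were listed and 1 was called. Csf2ra, the ligand-binding chain for GM-CSF, measured 188 CPM in control medium, 121 after Wnt2, 50.6 after CAF.CM and 31.5 with the antibody. It was lower with CAF.CM (-1.89) in the comparison in which Jak2, the kinase of the same receptor, was higher. Csf2rb, the chain that binds Jak2, measured 977, 1069, 814 and 641 CPM and was not called, and its close paralog Csf2rb2 makes the split of reads uncertain.

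The list of gp130 family receptors includes relatives that do not use gp130 itself, such as Lepr and Csf3r. It gave 1 higher and 2 lower of 7 with Wnt2 and 1 higher and 3 lower of 7 with CAF.CM. With antibody against CAF.CM it gave 0 higher and 1 lower of 6 (medians -0.30, -0.90 and -0.50). Lepr, the leptin receptor, measured 0.876 CPM in control medium, 26.3 after Wnt2, 5.22 after CAF.CM and 3.02 with the antibody, ratios of 4.89 for Wnt2 and 2.54 for CAF.CM. Its level in control medium was below about 1 CPM, so it was listed for both only because it was higher there. Il27ra (-2.34 and -3.36) and Il11ra1 (-1.15 and -2.27) were lower in the same comparisons. With CAF.CM, Il27ra was at 0.999 CPM from 26 reads, so it was listed there only because control medium was higher. Csf3r, the G-CSF receptor and also a neutrophil marker, was lower with CAF.CM (-1.95) and with antibody against CAF.CM (-1.07). Of 3 IL-12 family receptor genes, which use Tyk2 and Jak2, 2 were listed for CAF.CM. Il12rb1 (1.45) and Il23r (3.05) were higher there and lower with antibody against CAF.CM (-1.04 and -1.32). These ratios rest on 32 to 157 reads in the shallow libraries. Il23r was at 0.41 CPM in control medium, so it was listed for CAF.CM against control medium only because it was higher with CAF.CM. Of 7 interferon and IL-10 receptor genes, 0 were called for Wnt2, 2 were higher for CAF.CM (Ifnar2, 1.38, and Il20rb, 1.46) and 1 was lower for antibody against CAF.CM (Il10ra, -1.01). Ifnar2, the type I interferon receptor chain that carries Jak1, measured 137, 166, 358 and 305 CPM, and Ifnar1, the Tyk2 chain, 197, 171, 171 and 139 CPM. Ifnar2 thus shared with Jak2 the 2 high libraries with CAF.CM, and Ifnar1 did not.

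Of the 8 SOCS genes, which encode feedback inhibitors of the kinases, the Wnt2 comparison had 1 higher, and CAF.CM had 3 higher and 1 lower. Cish (1.94), a Stat5 target, measured 4.82 CPM in control medium, 7.99 after Wnt2, 18.6 after CAF.CM and 20.3 with the antibody, and Socs1 (2.46) measured 1.74, 1.85, 9.68 and 7.84 CPM. Both were high in the libraries with CAF.CM, as Jak2 was. Socs3 was called in all 3 comparisons (1.54, 2.78 and -1.05) and Socs6 was lower with CAF.CM (-1.17). Of 11 phosphatase, PIAS and related inhibitor genes, 1 was lower with Wnt2 (Ptpn22, -1.31), 1 was higher and 1 lower with CAF.CM (Usp18, 2.01, and Ptpn22, -1.18), and 0 were called for antibody against CAF.CM. Of 13 adaptors and cofactors, Sh2b2, an adaptor that binds Jak2, was higher with Wnt2 (1.41) and with CAF.CM (1.19), with levels of 16.3, 43.3, 37.2 and 46.9 CPM, and 0 others were called in any comparison. Irf9, the partner of Stat2, measured 44.5 CPM in control medium, 40.3 after Wnt2, 65.9 after CAF.CM and 39.8 with the antibody, the same order of libraries as Stat2 with the lowest pair close together. Its ratios of -0.14, 0.57 and -0.73 were smaller than 2-fold.

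The genes that Stat2 and Irf9 are known to act on were all listed, 26 of 26. For CAF.CM the count was 21 higher and 0 lower, at a median log2 ratio of 2.05 against -0.045 over all genes. For antibody against CAF.CM it was 0 higher and 12 lower, at a median of -0.93 against -0.037. For Wnt2 it was 0 higher and 6 lower, at a median of -0.27 against -0.023. Ifit3 (0.722 CPM), Cmpk2 (0.827 CPM) and Isg15 (0.905 CPM) were below about 1 CPM with Wnt2. They were listed for that comparison only because control medium was higher. Ifit2, an antiviral RNA-binding protein, measured 5.50 CPM in control medium, 2.30 after Wnt2, 62.3 after CAF.CM and 13.8 with the antibody. Oas3, which makes the activator of RNase L, measured 13.0, 10.8, 65.2 and 29.4 CPM. Like Stat2, both were highest with CAF.CM, but unlike Stat2 both were still above control medium with the antibody. Of the 26 genes, 23 were above control medium with the antibody and 3 were below it as Stat2 was, Mx1 (19.9 against 23.3 CPM), Oas1a (14.2 against 24.2 CPM) and Parp14 (118 against 151 CPM). Others were less than 2-fold apart between the libraries with CAF.CM. Rsad2 (viperin) measured 13.8, 6.85, 177 and 144 CPM, Irf7 measured 9.74, 11.1, 129 and 87.5 CPM, and Bst2 (tetherin) measured 35.0, 28.8, 163 and 176 CPM. The 8 with an ISRE core in their window were among both kinds, Rsad2 and Bst2 with ratios of -0.29 and 0.11 for antibody against CAF.CM and Ifit1 and Ifit3 with -1.70 and -2.06.

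Genes linked to the other STATs went both ways. Some stand on more than 1 list (Socs1, Socs3, Cish, Osm, Il4ra and Il21r), so the lists are not independent. Of 15 listed Stat3-linked genes, Wnt2 had 4 higher and 2 lower, CAF.CM 6 higher and 0 lower, and antibody against CAF.CM 0 higher and 4 lower (medians 0.58, 0.52 and -0.23), while Stat3 itself was not called. Lcn2, lipocalin 2, measured 4.05 CPM in control medium, 6.72 after Wnt2, 1668 after CAF.CM and 1398 with the antibody. Saa3, serum amyloid A3, measured 279, 117, 2326 and 2794 CPM, lower with Wnt2 (-1.25) and higher with CAF.CM (3.06). Il1rn, the IL-1 receptor antagonist, was higher with Wnt2 (1.53) and not called with CAF.CM (-0.20).

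Of 12 Stat5-linked genes, Wnt2 had 1 higher and 1 lower, CAF.CM 5 higher and 2 lower, and 0 were called for antibody against CAF.CM (medians 0.23, 0.42 and 0.11). The kinase gene Pim1 measured 136, 202, 324 and 426 CPM and was higher with CAF.CM (1.25), as was the cell cycle gene Ccnd2 (1.65). Myc was lower with Wnt2 (-1.22) and with CAF.CM (-2.08), and the survival gene Bcl2l1 was lower with CAF.CM (-1.29). The Myc ratio for CAF.CM (-2.69 to -1.57) rests on 29 reads with CAF.CM, at 1.11 CPM. Of 17 listed Stat6-linked genes, Wnt2 had 0 higher and 3 lower, CAF.CM 6 higher and 4 lower, and antibody against CAF.CM 0 higher and 1 lower (medians -0.034, 0.22 and -0.40). With CAF.CM the chemokine gene Ccl22 (1.43), Ccl24 (1.49), Chil3 (1.81) and Clec10a (1.28) were higher. Egr2 (-3.59), Mrc1, the mannose receptor (-3.11), and Arg1, arginase 1 (-1.32), were lower. Egr2 measured 169, 58.4, 14.0 and 10.1 CPM and Ccl22 60.7, 77.8, 164 and 148 CPM, so genes tied to the same factor stood on opposite sides while Stat6 was at -0.58.

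**Figure D4:**
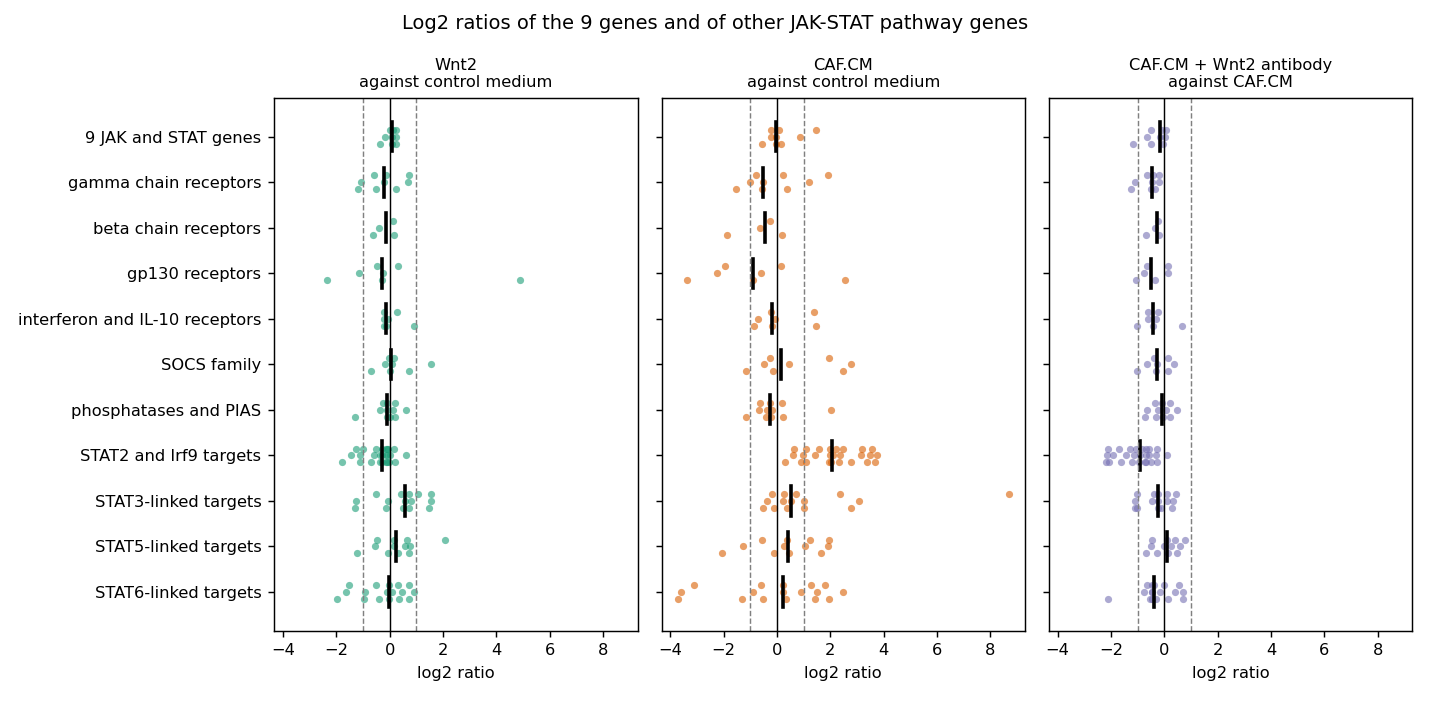
Log2 ratio (horizontal axis) of every listed gene, 1 point each, for the 9 JAK and STAT genes and 10 other lists of the pathway, in the 3 comparisons; bars mark medians and dashed lines 2-fold. The genes that Stat2 and Irf9 act on lie to the right for CAF.CM (median 2.05, 26 of 26 above 0) and to the left for antibody against CAF.CM (median -0.93), while the medians of the 9 genes are -0.027 (above 0 under other scalings) and -0.17.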

How the data were processed

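Stranded libraries were built from 1 ug of total RNA after ribosomal RNA removal, per the labels' protocols. Per the submitters' processing notes, the tools were STAR 2.4.2a, RSEM 1.2.29 and edgeR, and the builds GRCm38.p5 and mm10. Settings and the use of strand in counting were not stated. The authors deposited 1 table per comparison with normalized CPM per library, log2 fold changes, p-values and adjusted p-values, per the file headers. Each table lists genes at about 1 CPM or more in at least 1 of its libraries, so an unlisted gene is not shown to be absent. The deposited log2 mean levels were not used.

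The plan assumed expected counts or reads recovered from CPM. The files hold CPM, and 100% of the values were whole multiples of the step that 1 read is worth, within 0.1 step (0.00706 CPM in control medium, 0.00651 after Wnt2, 0.0384 after CAF.CM and 0.0431 with the antibody). Reads were recovered from these steps. The libraries present in 2 tables were identical in both (12954 of 12954 genes for control medium, 12848 of 12848 for CAF.CM), so levels were set side by side across tables.

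Ratios on the log2 scale came from edgeR 4.0.16 under R 4.3.3 (prior count 2, the authors' effective library sizes), with exact conditional binomial intervals for ratios and exact Poisson intervals for levels at 95% (scipy 1.17.1, numpy 2.4.6, pandas 2.3.3, Python 3.11.15). Figures were drawn with matplotlib 3.10.9. A gene was called at 2-fold or more. No test was run, since 1 library per group leaves no spread between cultures, and the spread behind the authors' p-values is not stated. Steps were tested on simulated data.

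All 9 members are named. Other genes are named where they are at least 2-fold apart in a comparison or among the 4 largest ratios of a list, and the 3 nearest genes are named for members that span at least 1 log2 unit. The members and lists were chosen with earlier results of these data known. Ifnar1, Ifnar2, Il4ra, Csf2rb, Irf9, Parp14 and the marker sums were set beside members of the same receptor or complex after their values were seen. Positions, exons and shared 31-base words come from GENCODE M21 (GRCm38) and promoters from RefSeq (GRCm38.p6). Alternatives were DESeq2 1.42.0 size factors, total reads, TMM, prior counts of 0.5 and 5, a minimum of 100 reads, protein-coding genes only, other call rules, the deposited fold changes and thinning of the deeper library.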

Additional observations from a re-analysis of the deposited data

How the results depend on the processing

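With a 1.5-fold in place of a 2-fold call, the members called higher with CAF.CM became 2 (Jak2 and Stat2, where 13.8% of listed genes were called) and those called lower with antibody against CAF.CM became 2 (Stat2 and Jak3, where 10.7% were). The other 64 values of the counts of members called were within 1.5 times the count given. No gene reversed a call. Of other listed genes, Rsad2 for Wnt2, Cebpb and Crlf2 for CAF.CM and Il10ra for antibody against CAF.CM lay near 2-fold and lost the call under at least 1 alternative. The signs of Jak1 for Wnt2 and CAF.CM, Stat5b for CAF.CM and Stat3 for antibody against CAF.CM turned with the scaling. No paired analysis was possible because each group has 1 sample and no replicate numbers. Leaving out a library was not possible either. Depth limits Jak3 most, with 253 reads in the antibody library.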
